A study of Mus musculus with 4 samples.

Results

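The p53 target genes of DNA damage described here are 10 genes, chosen by name among the 32285 genes counted in each mouse: Cdkn1a, Ccng1, Plk2, Mdm2, Trp53inp1, Bax, Eda2r, Phlda3, Zmat3 and Sesn2. They were measured by single-nucleus RNA-Seq in lung nuclei of C57/BL6J mice 8 to 9 weeks old, 2 of them WT and 2 VEcad-TRF2DN-Tg (Tg mice). The mice were males kept in 10% oxygen for 3 weeks, which both genotypes share. Tg mice carry a dominant-negative form of TRF2, a protein that caps telomeres, under the vascular endothelial cadherin promoter, so that the transgene is driven in ECs. No normoxic lung was sequenced in these 4 libraries, and the transgene has no row of its own in the count tables. The comparison asks whether genes that p53 switches on after DNA damage were higher in the ECs that carry the transgene, and whether other lung cells differed in the same way. Lymphatic ECs, which also express vascular endothelial cadherin, are counted here among the other classes.

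p53 is a transcription factor that is stabilised when DNA is broken or when telomeres lose their cap. It binds pairs of short half-sites near its target genes and switches on programmes of cell cycle arrest, apoptosis, repair and metabolic adjustment. Mdm2, itself a target, marks p53 for degradation and so closes a negative feedback loop. In senescent cells, Cdkn1a, which encodes the cyclin-dependent kinase inhibitor p21, is the best known of these targets.

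Each library held 125261739 to 182014706 unique molecular identifiers (UMIs, one per captured transcript), and 25269 to 44000 barcodes with 1500 or more UMIs. Of these barcodes, 86.2% in each WT mouse and 57.9% and 70.1% in the Tg mice could be given no class from marker genes. The share of barcodes with a class thus differed between the genotypes. Whether the barcodes with no class held nuclei was not tested. The classes were named only from marker genes, as X-like, and the suffix is left out below. ECs comprised 655 and 502 nuclei (WT) and 1334 and 1508 nuclei (Tg), and 14 classes had at least 10 nuclei in every mouse. Among the leading genes of ECs, Gm30382, Ccdc85a, Myrip, Bmp6 and Tspan7 took no part in naming the class. Cyyr1, Adgrl4, Tek and Calcrl, also among them, were markers that named it. Smooth muscle cells did not reach that number. The club markers Scgb1a1, Scgb3a2, Scgb3a1 and Cyp2f2 were too abundant in free RNA to be used. The club class therefore rests on Aldh1a1, Bpifa1, Muc5b and Gabrp. Between 176 and 475 barcodes, 0.697 to 1.3% of the smaller library, occurred in both libraries of a pair. Free RNA was estimated at 47.4% and 50.1% of the EC UMIs in WT mice and at 37.1% and 41.2% in Tg mice, from marker genes of other cells. The libraries of the genotypes also differed in composition. Transcripts of 79 ribosomal protein genes made up 0.347% and 0.778% of the EC UMIs in WT mice against 2.91% and 2.52% in Tg mice, and in all 14 classes the share of each Tg mouse exceeded that of each WT mouse. Levels below are in CPM, the UMIs of a gene scaled to a common total within a class and mouse. All of the levels are relative, so that fewer copies per nucleus and more of other transcripts cannot be told apart. The mouse Terf2 gene was at 50.7 and 54.3 CPM in ECs of the WT mice and at 46.2 and 48.8 in those of the Tg mice, which does not read the transgene separately.

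The promoters of 8 of the 10 genes were matched by symbol in RefSeq sequences of the mouse build GRCm38.p6. In the 250 bases before the transcription start, 4 of the 8 held the p53 half-site consensus, a palindromic motif of 10 bases that reads alike on both strands, and 7.12% of 32817 promoter windows of the same length held it. These 4 windows are shown because they hold an exact match to this consensus. Capitals mark the exact half-sites and, in Ccng1, the partner with a mismatch in the best pair of the window, while other near matches are left in lower case.
Cdkn1a (chr17:29090729-29090978, plus strand): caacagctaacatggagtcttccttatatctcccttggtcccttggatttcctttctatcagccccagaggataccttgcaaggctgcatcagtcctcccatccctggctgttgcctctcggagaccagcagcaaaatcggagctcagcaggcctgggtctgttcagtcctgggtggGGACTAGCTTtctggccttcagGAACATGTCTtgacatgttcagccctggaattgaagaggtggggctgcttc
Ccng1 (chr11:40755287-40755536, minus strand): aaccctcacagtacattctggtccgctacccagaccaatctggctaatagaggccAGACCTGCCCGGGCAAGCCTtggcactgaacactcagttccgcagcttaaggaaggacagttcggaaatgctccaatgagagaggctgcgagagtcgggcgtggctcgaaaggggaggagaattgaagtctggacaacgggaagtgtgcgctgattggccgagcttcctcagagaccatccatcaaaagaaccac
Mdm2 (chr10:117710759-117711008, minus strand): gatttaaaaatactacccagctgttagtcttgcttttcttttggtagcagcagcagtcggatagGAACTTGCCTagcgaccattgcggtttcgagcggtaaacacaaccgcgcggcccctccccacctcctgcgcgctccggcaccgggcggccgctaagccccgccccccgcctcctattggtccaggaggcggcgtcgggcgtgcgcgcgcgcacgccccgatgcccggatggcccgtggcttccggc
Bax (chr7:45466899-45467148, minus strand): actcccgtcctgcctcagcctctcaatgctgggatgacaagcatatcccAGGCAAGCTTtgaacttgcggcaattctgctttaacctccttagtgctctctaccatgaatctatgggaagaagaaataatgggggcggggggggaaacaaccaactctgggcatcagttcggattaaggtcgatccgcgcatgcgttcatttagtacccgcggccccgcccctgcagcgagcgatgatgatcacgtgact
Cdkn1a held a pair of half-sites, which start 73 and 51 bases before the transcription start and match the consensus with 0 mismatches. The bases that follow directly on the latter form a further half-site with 1 mismatch, which is left in lower case. In Ccng1, a half-site 185 bases before the start followed directly on another with 1 mismatch, which is also in capitals. Pairs with at most 1 mismatch and at most 13 bases between them were found in 0.503% of all windows. The window of a second Cdkn1a start (chr17:29093519-29093768, plus strand) held none. Mdm2 and Bax held a single half-site, and no match was found in the windows of Phlda3, Plk2, Sesn2 and Eda2r. The match is a description of the letters in these windows, and the study measured no p53 binding.

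In ECs, 2 of the 10 genes passed the test between genotypes, both higher in Tg mice: Ccng1 and Phlda3. All 10 genes had enough UMIs to be tested in ECs, and the threshold was an adjusted p of 0.05 in edgeR's quasi-likelihood test across all genes. Among all 13798 genes tested in ECs, 7.62% passed, 6.75% as higher and 0.877% as lower, so that 2 of 10 has to be read against that share. Both calls were lost when single mice were left out. Ccng1 had adjusted p values of 0.0672 without the first WT mouse, 0.188 without the first Tg mouse and 0.141 without the second Tg mouse, and Phlda3 had 0.350 and 0.0690 without the first and the second Tg mouse. In DESeq2 neither passed, with adjusted p values of 0.0872 for Ccng1 and 0.0512 for Phlda3. The log2 fold change stayed at 0.91 to 1.21 for Ccng1 and at 1.62 to 2.53 for Phlda3 over the mice left out, and was 1.03 and 2.12 in DESeq2. The median log2 fold change was 0.33 over the 10 genes and 0.02 over all genes tested. Of the 10 genes, 6 span 5 to 20 kb, and all genes of that span had a median of 0.37 in ECs.

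Cdkn1a, Ccng1 and Plk2 act on the cell cycle. Cdkn1a had 66 and 72 UMIs in WT ECs and 195 and 333 in Tg ECs, which correspond to levels of 28.3 and 33.7 against 50.1 and 63.0 CPM. Both Tg mice lay above both WT mice, and the log2 fold change was 0.86 ± 0.21 (SE), with an adjusted p of 0.0507 that just missed the threshold. It passed without the second WT mouse (adjusted p = 0.0216), with no filter on low counts (0.00649), at a floor of 1000 UMIs (0.0417) and with the replicate number as a block (0.0304), while the adjusted p under the other settings ran from 0.0558 to 0.535. Ccng1 encodes cyclin G1, which recruits a phosphatase to Mdm2. Its levels in ECs were 15.9 and 20.6 CPM in WT mice and 35.2 and 41.5 in Tg mice (37, 44, 137 and 219 UMIs). The groups did not overlap, and the log2 fold change was 1.07 ± 0.23 (SE, adjusted p = 0.0397). Plk2 encodes a polo-like kinase that acts at the G1 phase and in the duplication of centrioles. At 26.2 and 16.4 CPM in WT mice against 21.0 and 19.5 in Tg mice, its levels overlapped, with a log2 fold change of -0.09 ± 0.30 (SE, adjusted p = 0.866).

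Mdm2 was the one gene of the 10 for which each Tg mouse lay below each WT mouse in ECs. The levels were 113 and 90.7 CPM in WT mice and 60.3 and 68.0 in Tg mice. Its log2 fold change was -0.68 ± 0.19 (SE), which did not pass the test (adjusted p = 0.0722). It passed with no filter on low counts (adjusted p = 0.0285) and without the second WT mouse (-0.87, adjusted p = 0.00899), while the adjusted p under the other settings ran from 0.0646 to 0.385. The negative regulator of p53 therefore stood on the other side of 0 from Cdkn1a, Ccng1 and Phlda3.

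Of the genes tied to apoptosis, Phlda3 had the largest fold change in ECs. It encodes a small protein with a PH domain that competes with Akt for membrane lipids. Only 6 and 7 UMIs were counted in ECs of the WT mice against 65 and 49 in those of the Tg mice, with levels of 2.58 and 3.27 against 16.7 and 9.28 CPM. The log2 fold change was 2.13 ± 0.50 (SE, adjusted p = 0.0486). Bax, the pore-forming protein of the outer mitochondrial membrane, was at 24.5 and 25.3 CPM in WT mice and 35.4 in each of the Tg mice. The groups did not overlap, yet the log2 fold change of 0.50 ± 0.21 (SE) did not pass the test (adjusted p = 0.161). Trp53inp1, a nuclear protein induced by stress, was at 67.4 and 60.3 CPM in WT mice and 41.6 and 62.8 in Tg mice. Its groups overlapped, and the log2 fold change was -0.30 ± 0.22 (SE, adjusted p = 0.404). Eda2r, the receptor for ectodysplasin A2 in the tumour necrosis factor receptor family, was at 6.44 and 8.89 against 6.93 and 10.0 CPM (log2 fold change 0.15 ± 0.38 SE, adjusted p = 0.818).

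The last of the 10 genes act on RNA and metabolism. Zmat3, an RNA-binding zinc finger protein that changes splicing, had levels of 33.5 and 21.98 CPM in WT mice and 20.02 and 29.0 in Tg mice (log2 fold change -0.19 ± 0.30 SE, adjusted p = 0.695). Sesn2, a leucine sensor that restrains mTORC1, had levels of 5.58 and 8.42 CPM against 10.8 and 12.3. The Sesn2 groups did not overlap, with 13, 18, 42 and 65 UMIs behind them, and the log2 fold change was 0.72 ± 0.35 (SE, adjusted p = 0.220). In all, both Tg mice lay above both WT mice in ECs for 5 of the 10 genes and below them for 1. The same was true of 33.7% and 27.9% of all genes tested in ECs. With 2 mice against 2, an exact permutation test of a single gene cannot give a two-sided p below 0.333.

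**Figure D1:**
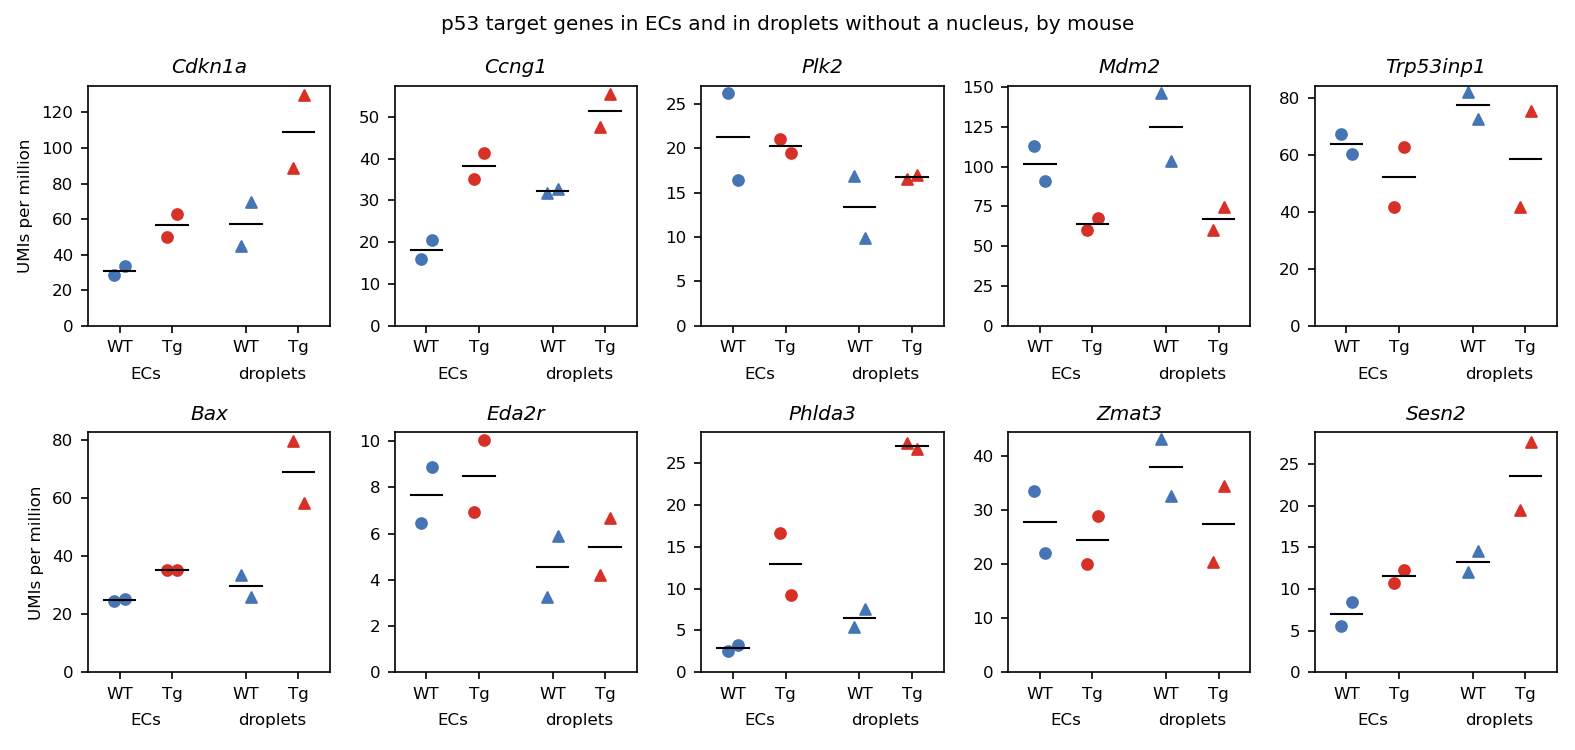
Levels of the 10 p53 target genes by mouse in ECs (circles) and in droplets of 300 to 800 UMIs taken to be without a nucleus (triangles), in CPM on a linear axis from 0, with WT mice in blue, Tg mice in red and the mean of 2 mice as a bar. Cdkn1a, Ccng1, Phlda3, Bax and Sesn2 are higher in both Tg mice in ECs and in droplets, and Mdm2 is lower in both.

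The same genes were measured in droplets of 300 to 800 UMIs, taken to hold free RNA of the whole lung suspension and no nucleus. Whether any of them held a nucleus was not tested. There, 5 of the 10 genes passed the test, all 5 higher in Tg mice, while 25.6% of 15180 genes passed and 14.5% passed as higher. The level of Phlda3 was 5.398 and 7.56 CPM in droplets of the WT mice and 27.4 and 26.7 in those of the Tg mice (log2 fold change 2.32 ± 0.32 SE, adjusted p = 0.0178). Bax stood at 33.6 and 25.9 CPM against 79.9 and 58.5, a log2 fold change of 1.51 ± 0.32 (SE, adjusted p = 0.0239). Cdkn1a, at 45.2 and 69.7 against 88.7 and 129.8 CPM, had a log2 fold change of 1.14 ± 0.28 (SE, adjusted p = 0.0311). For each of these 3 genes both Tg mice lay above both WT mice, as did 27.4% of all genes tested in droplets. The other genes that passed were Sesn2 (log2 fold change 1.04, adjusted p = 0.0369) and Ccng1 (0.91, adjusted p = 0.0302). Mdm2 was again lower in both Tg mice, at 146.3 and 103.3 against 60.0 and 74.4 CPM, without passing the test (log2 fold change -0.66, adjusted p = 0.0982). Without the first Tg mouse none of the 10 genes passed in droplets (edgeR; 5 at an unadjusted p under 0.05), and 2 passed without the second Tg mouse or without the first WT mouse. Barcodes of 1500 or more UMIs with no class, taken in place of the droplets, gave no call either (edgeR; 4 at an unadjusted p under 0.05). The share of all genes that passed is not given for these barcodes or for droplets with a mouse left out. These counts therefore cannot be read as a result about the 10 genes. Transcripts of the secretory gene Scgb1a1 moved with the genotype in the droplets, at 15011 and 15673 CPM in WT mice and 128052 and 43359 in Tg mice, and their part in the result was not tested. The same moved within ECs, where Scgb1a1 was at 6407 and 6823 CPM in WT mice against 41232 and 14433 in Tg mice. Hbb-bs, a haemoglobin gene of red blood cells, was at 36.9 and 50.05 CPM against 1925 and 1007 in ECs and at 82.9 and 112.3 against 4742 and 2749 in droplets.

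Whether ECs and droplets differed in their change was tested directly, a comparison added once the data were known. Bax was the one gene of the 10 that passed, with a change in ECs that was lower by 0.92 ± 0.25 on the log2 scale than in droplets (difference -0.92, SE 0.25, adjusted p = 0.00596), where 13.8% of 15361 genes passed. For the other 9 genes the difference lay between -0.59 and 0.21. The level in ECs relative to the droplets of the same mouse also set the genes apart. Eda2r was at 150 to 199% of the droplet level in ECs and Plk2 at 115 to 165%, above the droplets in every mouse. Phlda3 was at 34.8 to 60.9%, Cdkn1a at 48.3 to 62.7% and Sesn2 at 44.4 to 57.8%, below the droplets in every mouse. The same was true of Ccng1 (49.9 to 74.8%), Bax (44.3 to 97.5%), Zmat3 (67.4 to 97.8%) and Trp53inp1 (82.0 to 99.2%), while Mdm2 ran from 77.2 to 100.5%. These shares depend on the droplets chosen. Against the barcodes with no class of the first Tg mouse, its ECs were higher in Cdkn1a (50.1 against 44.8 CPM), Ccng1 (35.2 against 30.5) and Phlda3 (16.7 against 11.6). In the other mice ECs were lower than these barcodes in each of these genes. The part of free RNA in the changes of ECs cannot be read from these levels, and with the droplet profile subtracted from ECs none of the 8 genes still tested passed (edgeR; 1 at an unadjusted p under 0.05). Phlda3 and Sesn2 had too few UMIs left to be tested. After subtraction the log2 fold change was 2.51 ± 0.71 (SE, adjusted p = 0.182) for Ccng1 and 1.59 ± 1.17 (SE, adjusted p = 0.535) for Cdkn1a, larger than without it and with larger errors. Bax turned to -0.57 ± 0.56 (SE, adjusted p = 0.647), and Zmat3 (0.22) and Eda2r (-0.10) changed sign as well.

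Across the 13 other classes, 6 of 92 tests of these genes passed, against 5.4% of all tests of genes in these classes. In AT1 cells, the flat cells of the alveolar wall, Cdkn1a rose from 13.4 and 16.6 CPM in WT mice to 30.2 and 46.7 in Tg mice (log2 fold change 1.32 ± 0.24 SE, adjusted p = 0.0297). Phlda3 rose there from 2.24 and 1.29 to 6.73 and 7.66 CPM (log2 fold change 2.06 ± 0.43 SE, adjusted p = 0.0422), and Mdm2 fell from 133.1 and 124.1 to 70.2 and 84.0 (log2 fold change -0.76 ± 0.16 SE, adjusted p = 0.0399). So 3 of the 10 genes passed in AT1 cells, where 6.72% of all genes did, 6.19% as higher and 0.529% as lower. AT2 cells, which secrete surfactant, gave 2 of 10 genes against 10.1% of all genes (8.5% higher, 1.62% lower). In these cells Cdkn1a was at 19.1 and 22.2 CPM in WT mice and at 41.4 and 54.0 in Tg mice (log2 fold change 1.20 ± 0.21 SE, adjusted p = 0.0146). Phlda3 was at 2.34 and 2.70 against 7.73 and 11.0 CPM (log2 fold change 1.87 ± 0.41 SE, adjusted p = 0.0292). In alveolar macrophages, 1 of 10 genes passed and 6.24% of all genes did. It was Phlda3, at 1.99 and 2.06 against 6.83 and 9.96 CPM (log2 fold change 2.00 ± 0.45 SE, adjusted p = 0.0474). None of these 6 calls was left without the first or without the second Tg mouse, where the adjusted p values ran from 0.0820 to 0.251. Without the first WT mouse, Cdkn1a (0.0542) and Mdm2 (0.114) were lost in AT1 cells, and without the second WT mouse Phlda3 (0.103) and Mdm2 (0.0548) were lost there and Phlda3 (0.0897) in alveolar macrophages, each with its adjusted p. The 3 Phlda3 calls were also lost in DESeq2, with adjusted p values of 0.0671 (AT1), 0.0747 (AT2) and 0.0788 (alveolar macrophages), and with a floor of 3000 UMIs (0.0533, 0.0684 and 0.0601). None of the 10 genes passed in B cells, T cells, dendritic cells (DC), ciliated cells or club cells (edgeR; 3, 3, 1, 4 and 2 at an unadjusted p under 0.05), where 5.87%, 6.07%, 4.94%, 4.26% and 4.82% of all genes passed (4.62% as higher in dendritic cells). The same held for lymphatic ECs, mesothelial cells, fibroblasts, pericytes and the monocyte and interstitial macrophage class (2, 6, 2, 0 and 0 at an unadjusted p under 0.05), with 4.01%, 3.05%, 0.108%, 5.5% and 5.35% of all genes. Some settings gave calls in these classes. With no filter on low counts, 1 of the 10 genes passed in T cells, 1 in ciliated cells and 2 in mesothelial cells. Keeping barcodes with markers of 2 compartments gave 1 call in mesothelial cells. Cdkn1a passed in mesothelial cells in DESeq2 (1.56, adjusted p = 0.00877) and without the second WT mouse (2.45, adjusted p = 0.00127), and in lymphatic ECs without the first WT mouse (2.00, adjusted p = 0.0263) or the first Tg mouse (1.99, adjusted p = 0.0456). Mdm2 passed as lower in T cells (adjusted p = 0.0260) and ciliated cells (adjusted p = 0.0263) without the second WT mouse. Between 2 and 10 of the 10 genes had enough UMIs to be tested in these classes.

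**Figure D2:**
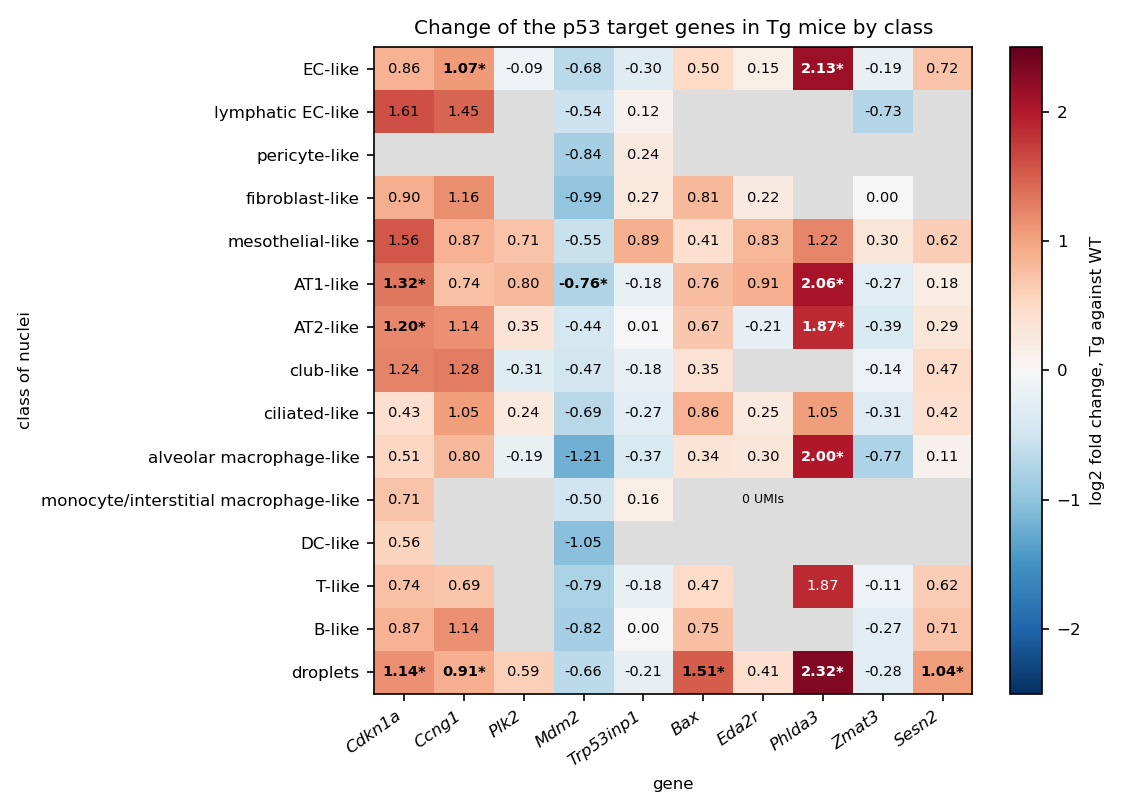
Log2 fold change, Tg against WT mice, of each gene (columns) in each class of nuclei and in droplets (rows), with red for higher and blue for lower in Tg mice, bold and an asterisk where the adjusted p was under 0.05, and grey where too few UMIs were counted for a test. Cdkn1a, Ccng1 and Phlda3 are red and Mdm2 is blue in every row where they were tested.

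The direction of the change was shared by many classes. Phlda3 was higher in each Tg mouse than in either WT mouse in 13 of the 14 classes, and Ccng1 in 12. Mdm2 was lower in both Tg mice in 13 of the 14. Of all genes tested in ECs, 6.39% were apart upwards in at least 13 classes, 9.39% upwards in at least 12, and 4.53% and 2.55% downwards in at least 12 and 13. Cdkn1a was apart upwards in 9 classes, Bax and Sesn2 in 7 each and Eda2r in 5, numbers that 19.4%, 27.1% and 36.2% of all genes tested in ECs reached or passed. Zmat3 overlapped in all 14. Several of these classes held few UMIs of a gene. Phlda3, for example, had 0 UMIs in lymphatic ECs of both WT mice, and the classes share the free RNA of their mouse, so that they are not separate observations.

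The change in ECs was compared with that in the 13 other classes in one fit, with a term for each mouse and class. This fit pools the residual spread over all classes and has no term for genotype within any single other class. Its SE and p values therefore do not measure how the difference varied over the 4 mice. None of the 10 genes passed this test of the difference, and 0.0519% of 15400 genes did (edgeR; 449 genes and 0 of the 10 at an unadjusted p under 0.05). The difference, ECs minus the other classes, was -0.05 ± 0.27 (SE) for Cdkn1a, 0.13 ± 0.23 for Ccng1, 0.42 ± 0.49 for Phlda3 and 0.13 ± 0.19 for Mdm2 on the log2 scale. With lymphatic ECs left out of the other classes, again none of the 10 genes passed (edgeR; 0 at an unadjusted p under 0.05). Over the 10 genes the difference from all 13 classes ran from -0.51 for Eda2r to 0.42 for Phlda3. The result does not show that the classes changed alike. In simulated counts of the same depth, with a dispersion of 0.0366, the test recovered 100% of genes changed 4-fold in ECs alone. It recovered 21% of those changed 2-fold, so that differences of the latter size would mostly be missed. Every class was simulated with the same dispersion and with no genotype difference apart from the changed genes in ECs. The changed genes were drawn from those with more UMIs in ECs than Phlda3, Eda2r or Sesn2 had. Whether these rates hold for the measured counts or for genes with few UMIs was not tested. Phlda3, Eda2r and Sesn2 had 127, 114 and 138 UMIs in ECs over the 4 mice.

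The length of the genes moved with the result. Gene spans from the start to the end of the annotated gene, introns included, were taken from GENCODE vM21 on GRCm38, and 13796 of the 13798 genes tested in ECs had one. The 1361 genes under 5 kb had a median log2 fold change of 0.98 in ECs, and the 4282 genes of 5 to 20 kb one of 0.37. The median was -0.01 for 3880 genes of 20 to 50 kb, -0.28 for 3016 genes of 50 to 150 kb and -0.43 for 1257 longer genes. Short genes were thus higher and long genes lower in Tg mice. The droplets gave the same order, from 1.18 under 5 kb to -1.11 over 150 kb. Over the 14 classes, the median ran from 0.83 to 2.18 in genes under 5 kb and from -0.44 to -0.18 in genes over 150 kb.

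The 10 genes span 3.02 to 43.4 kb. Phlda3, the shortest at 3.02 kb (chr1:135766119-135769136, plus strand), stood at percentile 83.8 of the genes under 5 kb in ECs. In the group of 5 to 20 kb, Ccng1 (6.76 kb, chr11:40748552-40755311, minus strand) stood at percentile 82.0, Cdkn1a (9.75 kb, chr17:29090976-29100727, plus strand) at 74.9, Sesn2 (18.5 kb) at 69.1 and Bax (5.20 kb) at 57.7. Plk2 (5.80 kb) at percentile 20.3 and Trp53inp1 (17.9 kb) at 11.0 lay in the lower part of that group. Mdm2 (21.9 kb, chr10:117688875-117710758, minus strand) stood at percentile 5.39 of the genes of 20 to 50 kb, with Zmat3 (31.2 kb) at 32.0 and Eda2r (43.4 kb) at 62.8. With the trend over gene span removed in each mouse, a setting added once the data were known, none of the 10 genes passed in ECs (edgeR; 2 at an unadjusted p under 0.05). The log2 fold change then was 1.20 for Phlda3 (adjusted p = 0.189), 0.50 for Ccng1 (adjusted p = 0.273), 0.43 for Cdkn1a (adjusted p = 0.290) and -0.81 for Mdm2 (adjusted p = 0.0739). In AT1 cells Mdm2 still passed under this setting, with a log2 fold change of -0.87 (adjusted p = 0.0387), and it was the one call left of the 6 in the other classes. In droplets none of the 5 calls was left (edgeR; 3 of the 10 genes at an unadjusted p under 0.05). The log2 fold change there went to 1.18 for Phlda3 (adjusted p = 0.0544), 0.76 for Sesn2 (0.115), 0.58 for Bax (0.234), 0.57 for Cdkn1a (0.187) and 0.14 for Ccng1 (0.682). What the span trend itself came from was not tested.

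**Figure D3:**
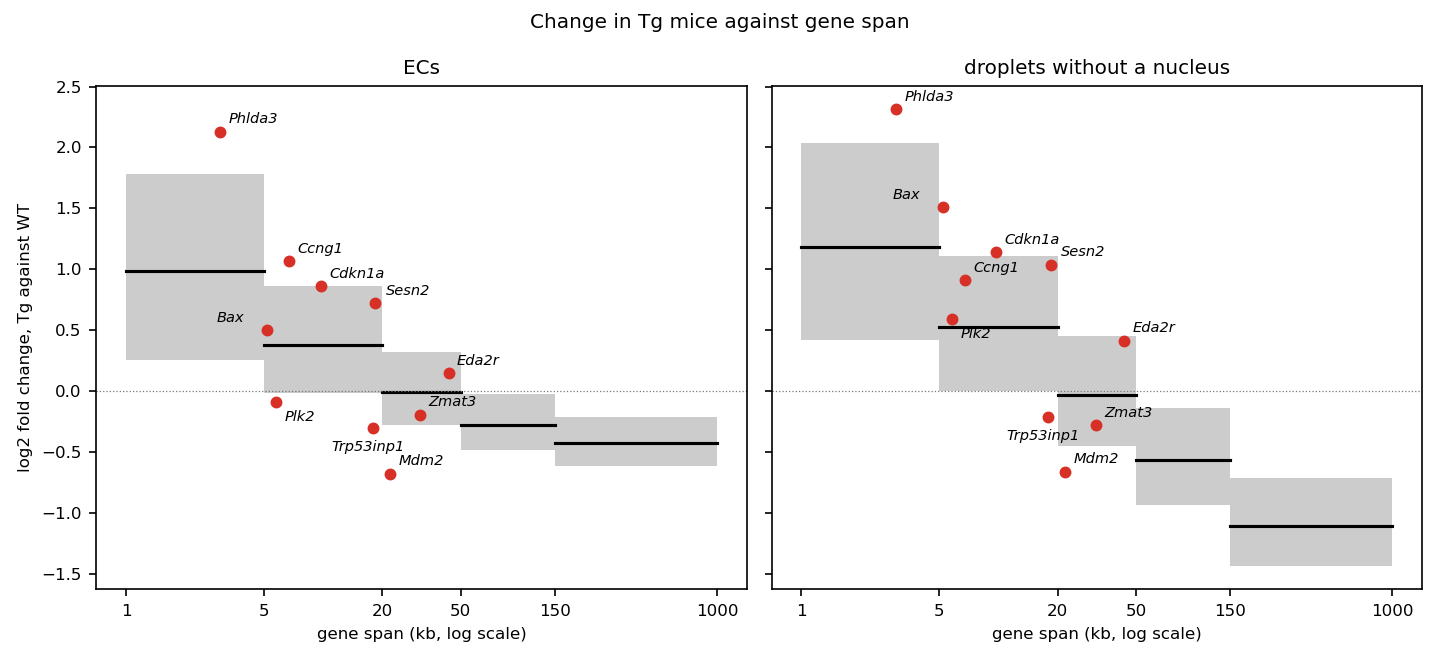
Log2 fold change, Tg against WT mice, against gene span in kb (log axis) in ECs and in droplets, with black lines for the median and grey boxes for the middle 50% of all genes tested in 5 groups of span, and red points for the 10 p53 target genes. The medians fall with span in both panels, from 0.98 to -0.43 in ECs and from 1.18 to -1.11 in droplets, and Mdm2 lies below the box of its group in both.

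With both genotypes pooled, the classes differed in their levels of these genes. Class against the mean of the other classes was tested over all 4 mice with a term for each mouse, and none of the 10 genes was a marker used to name a class. The fit pools the residual spread over all classes and has no term for genotype within a class. Its SE and adjusted p values therefore do not measure the spread of a class over the 4 mice. Mesothelial cells, the outer lining of the lung, were higher in 5 of the 10 genes, where 33% of 14214 genes differed in either direction and 18.4% were higher. Eda2r stood out among them, at 15.1 and 31.8 CPM in WT mice and 38.5 and 48.1 in Tg mice. Fibroblasts had 6.52 and 29.1 against 8.91 and 35.1 CPM, which overlap the mesothelial range and, in 1 mouse of each genotype, the EC range of 6.44 to 10.0. Pericytes ran from 0 to 22.2 on 0 to 4 UMIs a mouse, while AT1, AT2, ciliated cells and alveolar macrophages stayed at 4.36 or below in every mouse. The monocyte and interstitial macrophage class had 0 Eda2r UMIs and was left out of this comparison for Eda2r. Against 12 other classes, where 33.1%, 19.4% and 26.2% of all genes differed, the log2 difference of Eda2r was 3.02 ± 0.18 (SE, adjusted p = 1.8e-20) in mesothelial cells, 1.98 ± 0.37 (SE, adjusted p = 2.81e-05) in fibroblasts and 0.64 ± 0.24 (SE, adjusted p = 0.0407) in ECs. The levels of fibroblasts rest on 4 to 14 UMIs a mouse. Also higher in mesothelial cells were Zmat3 (log2 difference 0.93 ± 0.11 SE, adjusted p = 4.7e-10), Cdkn1a (0.80 ± 0.13, adjusted p = 8.16e-07), Phlda3 (0.57 ± 0.22, adjusted p = 0.0412) and Ccng1 (0.37 ± 0.12, adjusted p = 0.00929). Of these, Eda2r at 468 to 916% and Zmat3 at 126 to 247% of the droplet level lay above the droplets in every mouse. Cdkn1a (36.9 to 95.6%) and Ccng1 (47.6 to 81.7%) lay below them in every mouse, and Phlda3 in all but the first WT mouse (42.4 to 140.3%). For Cdkn1a the difference between classes rests on the Tg mice. Its mesothelial levels were 84.7 and 97.9 CPM in Tg mice, above every other class of the same mouse. In WT mice they were 16.7 and 42.7 CPM, the former below ECs (28.3) and alveolar macrophages (45.2) and the latter below dendritic cells (69.0) and fibroblasts (43.7).

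ECs differed from the other classes in 6 of the 10 genes, against 25.7% of all genes. Plk2 was the highest of them, with a log2 difference of 1.19 ± 0.19 (SE, adjusted p = 1.27e-06) and levels of 16.4 to 26.2 CPM in the 4 mice. In AT1 cells its levels were 4.03 to 9.61, below all of the EC values. Bax was higher in ECs by 0.41 ± 0.12 (adjusted p = 0.0069), and Eda2r as given above. Sesn2 (-0.59 ± 0.16, adjusted p = 0.00457), Zmat3 (-0.39 ± 0.12, adjusted p = 0.0123) and Mdm2 (-0.26 ± 0.10, adjusted p = 0.038) were lower in ECs. Cdkn1a did not pass the test, with a log2 difference of 0.16 ± 0.13 (SE, adjusted p = 0.426).

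Ciliated cells carried the most Mdm2. Its levels were 260.8 and 175.5 CPM in WT mice and 127.0 and 153.5 in Tg mice, and the log2 difference from the other classes was 1.07 ± 0.08 (SE, adjusted p = 5.77e-17). Trp53inp1 was also higher in ciliated cells (0.65 ± 0.11, adjusted p = 9.97e-07), while Ccng1 (-0.61 ± 0.12, adjusted p = 2.21e-05), Sesn2 (-0.53 ± 0.16, adjusted p = 0.00438) and Zmat3 (-0.35 ± 0.12, adjusted p = 0.0104) were lower, so that 5 of 10 genes differed where 56.1% of all genes did. Sesn2 was higher than in the other classes in pericytes, AT2 cells and AT1 cells. In pericytes it was at 22.6 and 28.1 CPM in WT mice and 38.8 and 34.3 in Tg mice, from 3 to 13 UMIs a mouse (log2 difference 1.19 ± 0.31 SE, adjusted p = 0.00513). In AT2 cells it was at 19.1 and 22.2 against 23.7 and 27.3 CPM (0.95 ± 0.13 SE, adjusted p = 1.63e-08). These classes differed from the others in 9.51% and 40.1% of all genes. The club class, named without Scgb1a1 and Cyp2f2, had Gabrp, Tacr1 and Lgr6 among its leading genes. It was lower in Cdkn1a (-0.69 ± 0.20 SE, adjusted p = 0.00656) and higher in Plk2 (0.90 ± 0.31 SE, adjusted p = 0.0187), against 30.7% of all genes.

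AT1 cells were higher in Sesn2 (0.45), Mdm2 (0.37) and Trp53inp1 (0.29) and lower in Cdkn1a (-0.35), 4 of 10 genes against 39.7% of all genes. Alveolar macrophages were higher in Zmat3 (0.30), Ccng1 (0.29), Bax (0.28) and Mdm2 (0.26) and lower in Trp53inp1 (-0.48), 5 of 10 genes against 50.4%. T cells were higher in Trp53inp1 (0.42) and Ccng1 (0.39), against 22.9% (11.9% higher), and fibroblasts were lower in Sesn2 (-1.23), against 19.5%. The Sesn2 levels of fibroblasts, 6.52 and 2.08 CPM in WT mice and 4.45 and 12.8 in Tg mice, rest on 4, 1, 3 and 4 UMIs. In T cells Ccng1 lay below the droplets in every mouse (61.7 to 95.1% of their level) and Trp53inp1 above them (124 to 164%). Free RNA was estimated at 37.4 to 60.9% of the T cell UMIs. AT2 cells were also lower in Mdm2 (-0.29). No gene of the 10 passed in B cells, dendritic cells, lymphatic ECs or the monocyte and interstitial macrophage class (edgeR; 1, 3, 1 and 1 at an unadjusted p under 0.05), where 20.7%, 17.1%, 12.7% and 14.7% of all genes did.

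**Figure D4:**
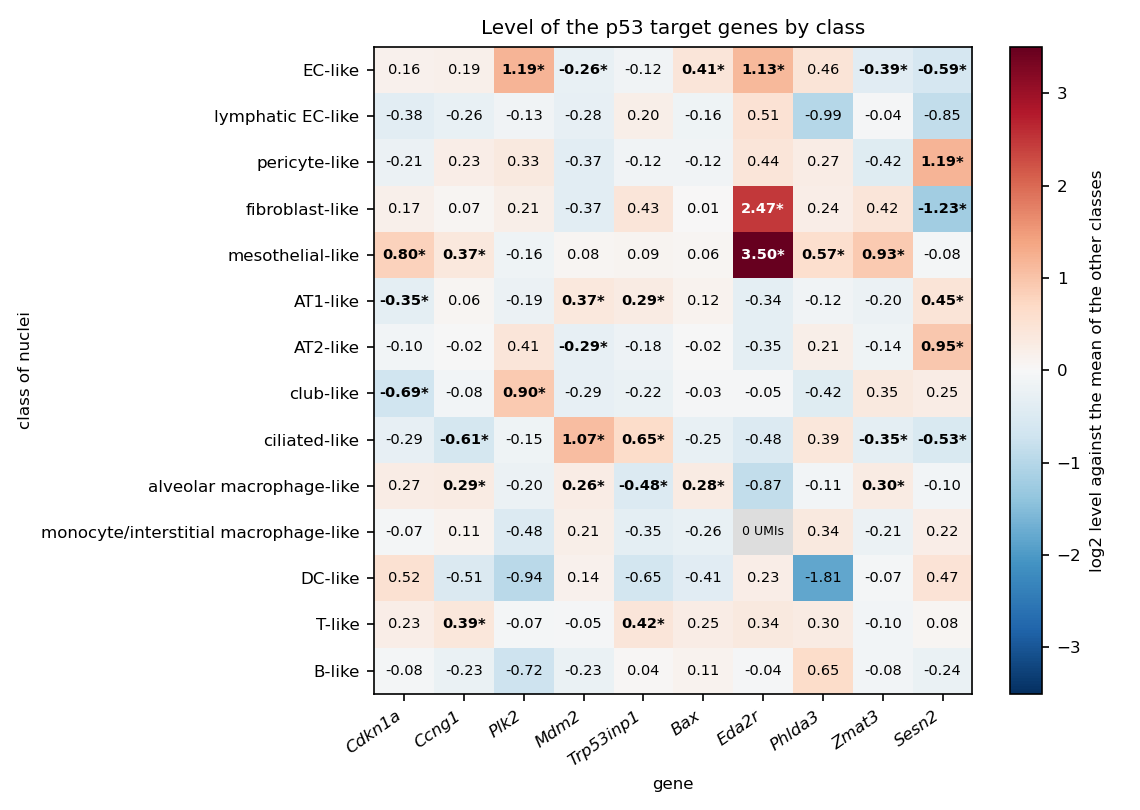
Log2 level of each gene (columns) in each class (rows) against the mean of the other classes over 4 mice, with red for higher and blue for lower, bold and an asterisk where the adjusted p was under 0.05, and grey where no UMI was counted. Eda2r in mesothelial cells and fibroblasts, Plk2 in ECs, Mdm2 in ciliated cells and Sesn2 in pericytes and AT2 cells stand out, and the Eda2r column includes the class with 0 UMIs in its mean.

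The wider p53 pathway was read from 3 lists of other genes. Of 11 genes for p53 and its regulators, 10 had enough UMIs in ECs and none passed the test (edgeR; 3 at an unadjusted p under 0.05), where 7.62% of all genes passed and 4095 of 13798 had an unadjusted p under 0.05. Trp53 itself had 48 and 47 UMIs in ECs of the WT mice and 105 and 128 in those of the Tg mice, at 20.6 and 21.98 against 27.0 and 24.2 CPM (log2 fold change 0.26 ± 0.23 SE, adjusted p = 0.487). Cop1 and Mdm4, which restrain p53 beside Mdm2, had log2 fold changes of -0.64 (adjusted p = 0.0722) and -0.57 (adjusted p = 0.0861), and Hipk2, a kinase that activates p53, one of -0.48 (adjusted p = 0.118). The median over the 10 regulators was -0.37, beside 0.02 over all genes tested. Genes of 50 to 150 kb had a median of -0.28 in ECs and longer genes one of -0.43. The regulators were not set against genes of their own span.

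Of 14 genes of DNA damage signalling, 13 were tested in ECs and none passed (edgeR; 1 at an unadjusted p under 0.05, Brca1, with a log2 fold change of -1.12 and an adjusted p of 0.113). Their median log2 fold change was 0.07. Rad50, of the complex that senses double-strand breaks, had a log2 fold change of 0.44 (adjusted p = 0.180), and Trp53bp1, which binds chromatin at breaks, one of -0.40 (adjusted p = 0.222). Of 31 other p53 target genes, 27 were tested in ECs and 1 passed, where 7.62% of all genes did. It was Dcxr, a reductase of dicarbonyls and sugars, with a log2 fold change of 1.35 ± 0.27 (SE, adjusted p = 0.0332). The median over the 27 was 0.15. In droplets, 8 of the 31 passed as higher and 3 as lower, beside 14.5% and 11% of all genes, with Dcxr among the former (1.82, adjusted p = 0.0178). Cop1 (-0.99, adjusted p = 0.0497) and Hipk2 (-0.93, adjusted p = 0.0358) passed as lower in droplets as well.

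Over the 14 classes, the genes whose mean level followed that of Cdkn1a most closely were Slfn9 (Pearson's r = 0.909), Cdkn2c (0.867), Vim (0.845), Brip1 (0.842) and Anln (0.838), among 18272 genes with at least 50 UMIs. The measure was log2 of the level plus 1. Vim encodes the intermediate filament vimentin, Cdkn2c encodes the cyclin-dependent kinase inhibitor p18, and Brip1 and Anln are known for DNA repair and cytokinesis. The 14 points share mice and free RNA, and the r values describe these classes only.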

How the data were processed

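Single-nucleus RNA-Seq was performed by the study's authors on lungs of 2 WT and 2 Tg mice. Deposited per mouse were counts of UMIs per gene and barcode, which the authors made with Cell Ranger 6.1.1 and mm10 per their processing notes, with no normalization. Barcodes with 1500 or more UMIs were assigned to cell classes by the likelihood of fixed marker genes against the free-RNA profile of the same mouse, without clustering. Barcodes with markers of 2 compartments (0.902% and 1.38% in WT mice, 4.01% and 4.73% in Tg mice) were left out as doublets, and no doublet caller was run. UMIs were summed per class and mouse and tested with edgeR 4.0.16 (R 4.3.3; TMM scaling, quasi-likelihood test, a minimum count of 10 in filterByExpr, Benjamini-Hochberg adjustment over all genes tested, threshold 0.05). DESeq2 1.42.0 was an alternative. The change in ECs was compared with that in 13 other classes by an interaction term, and class levels were compared with the mouse as a block. Tests were tried on simulated counts, in which 100% of genes changed 4-fold and 27.5% of those changed 2-fold in ECs were recovered. These counts had the same dispersion throughout and no other genotype difference. Whether these rates hold for the measured counts or for genes with few UMIs was not tested. Replicates are separate samples per the labels. Barcodes with 300 to 800 UMIs served as empty droplets. The genes and lists were chosen with earlier results of these data known. All 10 genes were described in each class, and of the other lists the genes that passed in ECs or, if none did, the 3 with the lowest p, and Trp53, together with the 5 genes most correlated with Cdkn1a over classes. The cut on free-RNA markers used in naming classes (1500 CPM) was set after the classes had been seen.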

Additional observations from a re-analysis of the deposited data

Results flagged for a closer look

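The levels of Trp53inp1 lay on opposite sides in mesothelial and in ciliated cells, although it passed the test between genotypes in neither (edgeR, adjusted p = 0.0842 and 0.441). In mesothelial cells each Tg mouse lay above each WT mouse, with levels of 36.4 and 44.1 CPM (WT) against 63.2 and 84.7 CPM (Tg) (log2 ratio of the means 0.88). In ciliated cells it was lower in both Tg mice, with 93.2 and 92.2 against 73.5 and 85.6 (log2 ratio -0.22). The ratios differ by 1.10 on the log2 scale, and this difference was not tested. Of all genes tested, 29% were apart upwards in mesothelial cells and 22.1% downwards in ciliated cells.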

How the results depend on the processing

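The number of the 10 genes that passed in ECs (2), of all genes in ECs (1052), of calls in the other classes (6) and of the 10 genes in droplets (5) depended on the processing. In that order, the first 3 were 4, 2863 and 15 with no filter on low counts, 0, 34 and 0 with the droplet profile subtracted, and 0, 395 and 1 with the span trend removed, which also left 0 in droplets (edgeR). DESeq2 gave 0 of the 10 genes in ECs, with 4 at an unadjusted p under 0.05. A floor of 3000 UMIs gave 1 of the 10 genes in ECs and 3 calls in other classes. Leaving out 1 mouse at a time gave 0 to 4 of the 10 genes and 2 to 2770 genes in ECs, 0 to 9 calls in other classes and 0 to 5 in droplets; with 1 mouse left in a genotype, it was assumed to vary like the others. Unnamed barcodes in place of droplets gave 0 calls among the 10 genes, with no share of all genes to set beside them. Droplets in place of the other classes gave 1 gene whose change differed from that in ECs, where 13.8% of all genes passed. The cause of these shifts was not tested.

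With the replicate number as a block, 3 of the 10 genes and 1798 genes passed in ECs and 10 calls in other classes, with Cdkn1a past the threshold, as it was with no filter and at 1000 UMIs (log2 fold change 0.86, adjusted p = 0.0304). The block lost the Phlda3 call in alveolar macrophages (adjusted p = 0.0788) and gained Ccng1 in ciliated cells (0.0446), Cdkn1a in lymphatic ECs (0.0332), and Cdkn1a (0.000359) and Trp53inp1 (0.024) in mesothelial cells. In AT2 cells 3 of the 10 genes passed with the block, against 2 without it. Same-numbered mice deviated together only weakly (r = 0.117), and nothing in the labels ties them.

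Of the values for single genes in ECs, 100 kept their direction and side of the threshold, 11 kept their direction but no longer passed, 6 kept it and newly passed, and 11 changed sign. Over the mice left out, Zmat3 ran from -0.51 to 0.17, Plk2 from -0.43 to 0.32 and Eda2r from -0.11 to 0.35. Zmat3 turned to 0.17 and 0.013 without the first WT and the first Tg mouse and to 0.22 with the droplet profile subtracted. Plk2 turned to 0.32 and 0.0039 without the first WT and the second Tg mouse. Eda2r turned to -0.049 and -0.11 without the same mice, to -0.040 at 3000 UMIs and to -0.100 after subtraction. Bax turned to -0.57 after subtraction and to -0.18 with the span trend removed. Droplets of 100 to 300 UMIs held too few UMIs for any of the 10 genes to be tested.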
